A study of Mus musculus with 2 samples.

Results

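The nuclear genes for subunits of the 5 complexes of oxidative phosphorylation were examined in single cells of mouse pancreatic islets. The genes were chosen by their symbols (Nduf for complex I, Sdh for complex II, Uqcr for complex III, Cox4 to Cox8 for complex IV, Atp5 for complex V, the ATP synthase) and by a level of at least 5 CPM (UMIs, counted transcripts, scaled to a common depth) in summed insulin-leading or glucagon-leading cells. Of the 32285 genes in the tables, 85 symbols matched and 78 passed the minimum, against 10639 genes of all kinds at the same minimum. Assigned by symbol alone, the 78 comprised 37 genes of complex I, 4 of complex II, 8 of complex III, 12 of complex IV and 17 of complex V. Ndufa4 was counted under complex I only on account of its symbol. Genes with other symbols, such as Cyc1 for cytochrome c1, were not counted. GENCODE vM21 annotates 77 of the 78 as protein coding and Ndufb1-ps, also counted under complex I, as a noncoding RNA. The 7 that missed the minimum were Cox4i2, Cox6b2, Cox7a1, Cox7b2, Cox8b, Cox8c and Ndufa4l2, all alternative isoforms.

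The respiratory chain carries electrons from NADH at complex I and from succinate at complex II through complex III to oxygen at complex IV, and ATP synthase uses the proton gradient that complexes I, III and IV build up. The mitochondrial genome encodes part of complexes I, III, IV and V, while complex II is wholly nuclear. In beta cells, ATP made this way from glucose closes potassium channels and sets off insulin release, and alpha cells, which make glucagon, use the same machinery. Several complex IV subunits exist as isoforms, among them Cox6a1, found in most tissues, and Cox6a2, known from heart and skeletal muscle.

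The islets came from 12-week-old female mice on a C57BL/6 background and were kept 3 days in RPMI with 10 mM glucose before dissociation. There was 1 library from Spop fl/fl mice (control) and 1 labelled SpopβKO, a deletion of the ubiquitin ligase adaptor Spop in beta cells. The number of mice behind each library and the Cre driver are not given in the sources used here. The control library held 6850 cells and the library labelled knockout 8842, with a median of 8870 and 7638.5 unique molecular identifiers (UMIs, 1 per captured transcript) per cell, and 14 cell barcodes occurred in both. Spop itself was counted at 67.3 CPM in control and 80.1 CPM in labelled-knockout insulin-leading cells, and a 3′ tag outside the deleted exons would not register the deletion, so this does not check the label.

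Cells were classed by the hormone with most UMIs. Insulin-leading cells numbered 4762 in control and 7488 in the other library, and glucagon-leading (Gcg-leading) cells 1897 and 1191. The classes carried the markers of beta and alpha cells: leaving out Ins1, Ins2 and Gcg, which set the classes, 7 of 7 beta markers were lower and 6 of 6 alpha markers higher in Gcg-leading cells at an adjusted p under 0.05 in edgeR's quasi-likelihood test. Because each transcript gives 1 tag at its 3′ end, levels were compared between genes as CPM without division by length. They were scaled with TMM, which sets aside the large hormone counts.

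Promoters of 63 of the 78 genes were matched in the RefSeq table (GRCm38.p6, 250 bases before to 50 after the start). The NRF1 core GCGCATGC, searched on both strands, lay in 10 of the 63 (15.9%) and in 2.80% of all 27025 promoters of the same length. The ETS core CCGGAAG, bound by GABPA among others, lay in 16 (25.4%) against 9.12%, YY1's AAGATGG in 9 (14.3%) against 6.48%, and TATAAA in 6 (9.52%) against 14.2%. All promoters here include those of genes under the minimum, and they were not matched for GC content. The median GC of the 250 bases before the start was 56.4% for the members and 52% for all. The part of GC content and level in these shares was not tested. Printed here are the 250 bases before the start, read on the gene's own strand, of Cox6a1, the common partner of Cox6a2, and of 3 genes that rose with the insulin share of the cell, Uqcrh, Ndufa1 and Atp5md. Capitals mark matches to the 4 motifs on either strand. Cox6a2 has no entry.

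Cox6a1: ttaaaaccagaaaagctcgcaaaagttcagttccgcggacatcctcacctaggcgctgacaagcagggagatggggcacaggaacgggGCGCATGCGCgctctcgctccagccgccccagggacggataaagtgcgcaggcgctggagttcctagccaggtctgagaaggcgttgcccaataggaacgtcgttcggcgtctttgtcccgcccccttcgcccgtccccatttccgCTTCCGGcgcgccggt

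Uqcrh: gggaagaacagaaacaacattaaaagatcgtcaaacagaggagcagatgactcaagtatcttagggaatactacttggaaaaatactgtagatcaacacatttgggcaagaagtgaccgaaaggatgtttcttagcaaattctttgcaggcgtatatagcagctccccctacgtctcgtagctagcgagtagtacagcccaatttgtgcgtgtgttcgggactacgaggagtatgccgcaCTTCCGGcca

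Ndufa1: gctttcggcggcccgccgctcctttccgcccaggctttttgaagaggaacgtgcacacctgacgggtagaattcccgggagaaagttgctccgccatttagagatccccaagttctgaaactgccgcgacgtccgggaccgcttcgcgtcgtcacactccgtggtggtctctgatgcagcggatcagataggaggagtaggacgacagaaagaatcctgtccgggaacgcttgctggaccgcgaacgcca

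Atp5md: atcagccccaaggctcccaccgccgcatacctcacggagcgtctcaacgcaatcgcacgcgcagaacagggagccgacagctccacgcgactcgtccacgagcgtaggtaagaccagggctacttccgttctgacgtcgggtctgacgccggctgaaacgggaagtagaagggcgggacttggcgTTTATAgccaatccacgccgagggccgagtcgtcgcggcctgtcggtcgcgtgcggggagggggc

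These lie at chr5:115348959-115349208, minus strand, at chr4:116075071-116075320, minus strand, at chrX:37191239-37191488, minus strand and at chr19:47090648-47090897, minus strand. In Cox6a1, NRF1 matches on both strands overlap in 1 run and an ETS match lies close to the start. Uqcrh has an ETS match close to the start, Atp5md a TATAAA match on the opposite strand, and Ndufa1 no match in the stretch shown.

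Together the 78 genes made up 22937 CPM in control insulin-leading cells and 22831 CPM in those of the library labelled knockout, and 20327 and 23578 CPM in Gcg-leading cells. By complex, the sums in control insulin-leading cells were 8272 CPM for complex I, 401 for complex II, 2661 for complex III, 5363 for complex IV and 6240 for complex V. Complex II was the lowest in level per gene as well, with a median of 99.6 CPM against 402 CPM for complex IV. In control insulin-leading cells the highest gene was Uqcrq, a small subunit of complex III, at 1012 CPM in control and 849 CPM in labelled-knockout insulin-leading cells and 706 and 788 CPM in Gcg-leading cells. The highest of complex IV was Cox8a at 879 CPM in control insulin-leading cells, the highest of complex V the epsilon subunit Atp5e at 736 CPM, the highest of complex I Ndufb9 at 588 CPM, and the highest of complex II the catalytic flavoprotein Sdha at 142 CPM. Within complex I the range ran down to 45.3 CPM for Ndufs1, the large iron-sulphur subunit of the core.

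**Figure D1:**
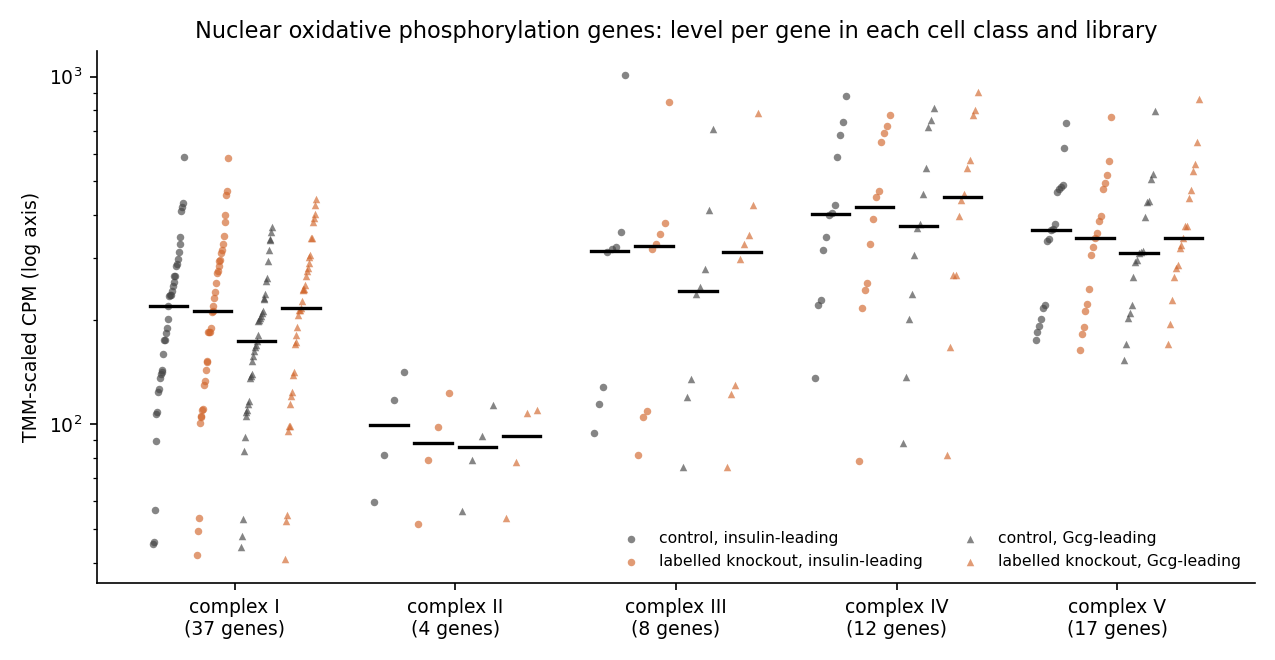
TMM-scaled CPM (log axis) of each of the 78 genes by complex, in insulin-leading cells (circles) and Gcg-leading cells (triangles) of the control library (grey) and the library labelled knockout (orange); 1 point per gene, bars at the median. Complex II lies lowest in all 4 sums, and the medians of complexes I, III, IV and V are lower in control Gcg-leading cells than in the other 3 sums.

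Alpha and beta cells were compared by summing UMIs per class and library, with the library as a term in the fit (4 sums, 1 residual degree of freedom). Only 4 of the 78 genes passed an adjusted p of 0.05 in edgeR's quasi-likelihood test, all lower in Gcg-leading cells, and 0 were higher. Over all 10639 genes tested, 9.2% were called lower and 9.76% higher, so the share of the subunit genes called was below the background in both directions. At an unadjusted p under 0.05, 7 subunit genes were lower and 4 higher, against 17.8% and 17.9% of all genes. DESeq2 called the same 4 genes lower and none higher.

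Cox5a, a subunit on the matrix side of complex IV, fell from 227 CPM in insulin-leading to 137 CPM in Gcg-leading cells of the control library and from 216 to 167 CPM in the library labelled knockout. The fitted log2 difference was -0.55 (edgeR adjusted p = 0.037), lower in 2 of 2 libraries. Both Gcg-leading sums lay below both insulin-leading sums.

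The other 3 were accessory subunits of complex I. Ndufb9 fell from 588 to 369 CPM in control and from 583 to 444 CPM in the other library (log2 difference -0.53, edgeR adjusted p = 0.040). Ndufb8, of the membrane arm, fell from 298 to 199 CPM and from 312 to 243 CPM (log2 difference -0.47, edgeR adjusted p = 0.045). Ndufv3, a small subunit of the arm that takes up NADH, fell from 233 to 174 CPM and from 294 to 213 CPM (log2 difference -0.45, edgeR adjusted p = 0.041). In each of the 3, no Gcg-leading sum reached the level of an insulin-leading one. Ndufb9 shares exon sequence on the same strand with Gm49356 and Ndufb8 with Gm20538 in GENCODE vM21, so their counts are less certain.

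Genes with higher values in Gcg-leading cells did not pass the test. The largest was Atp5c1, the gamma shaft of ATP synthase, at 217 and 212 CPM in insulin-leading and 265 and 288 CPM in Gcg-leading cells (log2 difference 0.37, edgeR adjusted p = 0.078). Uqcrh, the hinge protein of complex III, followed at 312 and 354 CPM against 414 and 428 CPM (log2 difference 0.34, edgeR adjusted p = 0.099). Cox7c of complex IV had a log2 difference of 0.33 and Ndufc2 of complex I one of 0.30. With a minimum of 25 CPM for entering the test, Atp5c1 and Uqcrh passed as higher (edgeR adjusted p = 0.028 and 0.043). When the library term was left out, 0 of the 78 passed.

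The complexes differed little between the classes. The median log2 difference, Gcg-leading minus insulin-leading, was -0.09 for complex I, -0.07 for complex II, -0.21 for complex III, -0.04 for complex IV and 0.03 for complex V, against 0.00 for all genes tested. The libraries gave different medians: over all 78 genes it was -0.21 in control and 0.05 in the library labelled knockout. In control the medians were negative in every complex, from -0.34 in complex III to -0.11 in complex V. In the other library they ran from -0.05 in complex III to 0.12 in complex V. Of the 78, 33 were lower and 17 higher in both libraries.

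**Figure D2:**
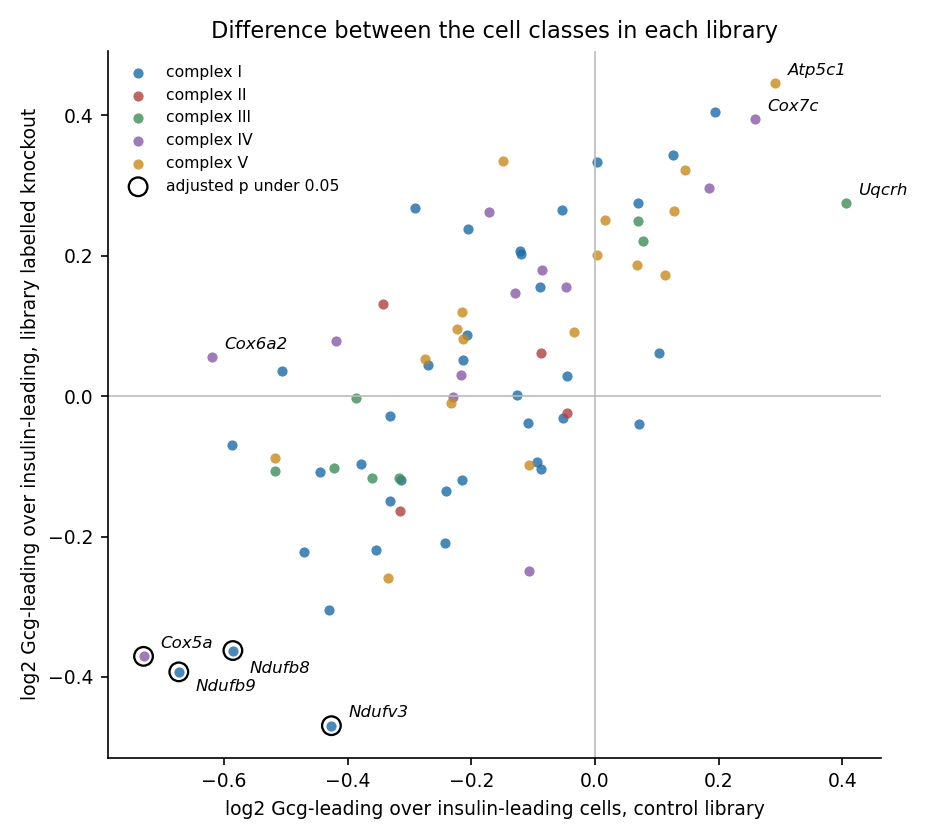
Log2 ratio of Gcg-leading over insulin-leading cells for each of the 78 genes in the control library (horizontal axis) and the library labelled knockout (vertical axis), coloured by complex, with circles around the 4 genes that passed the test. The called genes lie together at the lower left, negative in both libraries, while Cox6a2 is at -0.62 in control and 0.06 in the other library.

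Lists of related genes were read beside the subunits, and against the 9.2% of all genes that fell and 9.76% that rose. Of 36 assembly factors tested, 3 fell in Gcg-leading cells and 0 rose: Uqcc2 and Uqcc3, which assemble complex III, and Atpaf2, which assembles ATP synthase. At 712 CPM in control insulin-leading cells, Uqcc2 was as abundant as many subunits, and its log2 difference was -0.55 (edgeR adjusted p = 0.032). Of 16 genes of the citric acid cycle 1 fell, pyruvate carboxylase (Pcx), which refills the cycle and is abundant in beta cells (log2 difference -1.29, edgeR adjusted p = 0.0061). Of 12 regulators of these genes 2 rose, the coactivator Ppargc1a (log2 difference 2.14, edgeR adjusted p = 0.022) and the nuclear receptor Esrra (0.64, edgeR adjusted p = 0.032). Ppargc1a was low throughout, at 5.61 and 1.79 CPM in insulin-leading and 13.6 and 15.3 CPM in Gcg-leading cells. None of the 13 mitochondrially encoded subunits passed.

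Within insulin-leading cells the share of a cell's UMIs from Ins1 and Ins2 was cut into 5 bands: under 5%, 5 to 10%, 10 to 20%, 20 to 30% and 30% or more. A band is a range of a continuous value and not a cell type. The lowest band held 2397 control and 2265 labelled-knockout cells and the highest 517 and 1000. Between these 2 bands 5 of the 78 genes rose and 1 fell in edgeR's quasi-likelihood test, where 7.93% of all genes rose and 7.56% fell. The shares of the subunit genes were thus near the background for higher and below it for lower. At an unadjusted p under 0.05, 16 were higher and 2 lower, against 13.4% and 12.7% of all genes.

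The gene that fell was Cox6a2, the muscle isoform of a complex IV subunit, annotated at chr7:128205435-128206387 (mm10, minus strand). From the lowest to the highest band it measured 142, 117, 107, 81.5 and 64.2 CPM in control and 89.5, 78.1, 74.4, 34.6 and 38.6 CPM in the library labelled knockout. The level fell at each step except the last in the library labelled knockout. The log2 difference between the highest and the lowest band was -1.19 (edgeR adjusted p = 7.6e-06), -1.14 in control and -1.21 in the other library, and it ranged from -1.39 to -1.095 over the alternatives. Its adjusted p over these ran from 2.9e-08 to 0.17, and only the fit without the library term missed 0.05.

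Its partner Cox6a1 (chr5:115345642-115348981, minus strand) was nearly level across the same bands, at 290 CPM in the lowest and 263 CPM in the highest band of control and 236 and 206 CPM in the other library (log2 difference -0.18, edgeR adjusted p = 0.73). Cox6a2 therefore made up 32.8% (exact 95% interval 32.1 to 33.6) of Cox6a UMIs in the lowest control band and 19.6% (17.3 to 22.1) in the highest. In the library labelled knockout its share was 27.5% (26.5 to 28.5) and 15.8% (14.3 to 17.3). These intervals cover counting error only, as do all intervals given for single libraries.

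**Figure D3:**
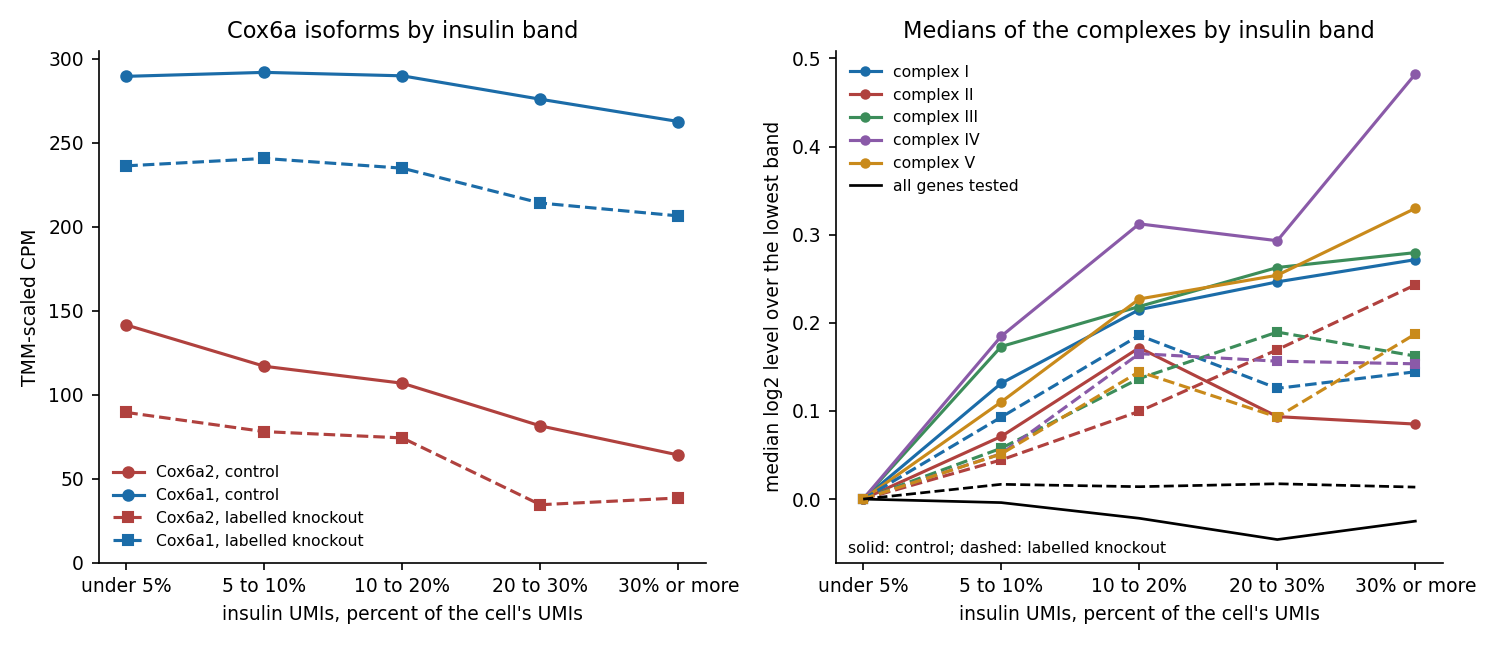
Left, TMM-scaled CPM of Cox6a1 (blue) and Cox6a2 (red) in 5 bands of the insulin share of insulin-leading cells, in the control library (solid) and the library labelled knockout (dashed). Right, median log2 level of each complex over its lowest band, with all genes tested in black; Cox6a2 goes down from 142 to 64.2 CPM in control while the medians of the complexes lie above 0.

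Of the genes that rose, 4 are described here, from complexes I, III, IV and V. Cox7a2l, a Cox7a-related protein known from supercomplex assembly, rose from 466 to 889 CPM in control and from 466 to 839 CPM in the library labelled knockout (log2 difference 0.88, edgeR adjusted p = 0.028). The level increased at every band in both libraries.

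Uqcrh rose from 233 to 500 CPM in control but only from 272 to 389 CPM in the other library (log2 difference 0.80, edgeR adjusted p = 0.025). Ndufa1, an accessory subunit of the membrane arm of complex I, rose from 104 to 162 CPM and from 112 to 216 CPM (log2 difference 0.78, edgeR adjusted p = 0.010). Atp5md, a small subunit of ATP synthase, rose from 167 to 318 CPM and from 188 to 270 CPM (log2 difference 0.72, edgeR adjusted p = 0.033). Of the genes named here, Cox6a2 and Ndufa1 also passed when the leading hormone had to exceed each other hormone 5-fold, and Cox6a2, Cox7a2l and Ndufb10 passed between the outer quartiles of the insulin share.

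Median log2 differences between the highest and the lowest band were 0.19 for complex I, 0.13 for complex II, 0.24 for complex III, 0.30 for complex IV and 0.29 for complex V, against 0.00 for all genes. Of the 78 genes 60 had a positive difference, 53 of them in both libraries. The medians over all 78 were 0.31 in control and 0.17 in the library labelled knockout. The band fits left Ins1 and Ins2 out of the genes and of the totals. Without TMM, CPM over UMIs other than Ins1 and Ins2 moved the median of all genes to -0.20 and that of complex I to -0.01. The distance between them stayed while the sign of the median of complex I changed. As a share of all UMIs, insulin included, the 78 genes went from 2.50% in the lowest control band to 1.44% in the highest. In the other library they went from 2.46% to 1.55%. Uqcrq had a log2 difference of -0.57 that did not pass with TMM (edgeR adjusted p = 0.23). It passed with CPM over UMIs other than Ins1 and Ins2 (-0.77, edgeR adjusted p = 0.012). Of the 13 mitochondrially encoded subunits all had positive fitted differences, with a median of 0.87, and 3 passed, mt-Nd4l, mt-Nd5 and mt-Atp8. In control their median was 0.39 and 3 of them (mt-Nd1, mt-Nd2 and mt-Nd6) were lower in the highest band, while in the other library it was 1.27 and all 13 were higher.

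The lowest band differed in other ways too. The mesenchymal list (5 genes) summed to 59.7 CPM in the lowest control band and 0.59 CPM in the highest, and to 191 and 2.13 CPM in the other library. The endothelial list (4 genes) went from 37.3 to 2.38 CPM and from 22.3 to 1.01 CPM. The macrophage list (5 genes) went from 130 to 35.7 CPM and from 292 to 152 CPM. Of its 4 genes tested 3 fell, but C1qa rose in both libraries (log2 difference 1.04, edgeR adjusted p = 2.3e-04). C1qa made up most of the macrophage sum left in the highest band, 143 of 152 CPM in the library labelled knockout. The part of C1qa in the marking of cells by the macrophage list was not tested. Median genes per cell were 3271 in the lowest and 1766 in the highest control band, and 2690 and 2824.5 in the other library. After removal of cells with at least 3 UMIs and 0.1% of UMIs from the mesenchymal, endothelial, macrophage or acinar list (66 control and 111 labelled-knockout cells of the lowest band), all 6 genes still passed, with Cox6a2 at -1.24 (edgeR adjusted p = 1.8e-04). The part of the difference in genes per cell was not tested.

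Cox6a2 was lower in those insulin-leading cells that carried markers of other cell types. In cells without such markers it stood at 142 CPM in control (plain CPM, 95% counting interval 139 to 145) and 77.1 CPM (75.2 to 79.2) in the library labelled knockout. With endothelial markers it was 11.5 CPM (3.74 to 26.9) in 35 control cells and 17.1 CPM (4.65 to 43.7) in 21 cells of the other library, at a median depth of 11118 and 8004 UMIs. With macrophage markers it was 31.3 CPM (11.5 to 68.2) and 10.7 CPM (3.92 to 23.3), and with mesenchymal markers 30.6 CPM (17.1 to 50.4) and 53.3 CPM (37.1 to 74.1). Cox6a1 showed a smaller gap or none: it was at 311 and 299 CPM in the endothelial-marked cells, against 328 and 247 CPM in cells without markers. Most marked cells lay in the lowest band. In that band of control, Cox6a1 was at 299 CPM with endothelial, 256 CPM with macrophage and 358 CPM with mesenchymal markers, against 379 CPM without. In the other library it was at 299, 301 and 315 CPM against 303 CPM. Cox6a2 with endothelial markers was at 7.48 and 17.1 CPM in that band, against 190 and 120 CPM without. How much of the Cox6a2 in marked cells came from free RNA or a second cell was not tested. Skeletal and heart muscle markers were near 0: the 8 genes summed to between 2.54 and 3.59 CPM in the 4 class sums, with 3 to 6 of the 8 at 0. In cells led by Ppy, the hormone of PP cells, Cox6a2 was at 117 CPM in 162 control cells and 66.6 CPM in 145 labelled-knockout cells (plain CPM). Ppy was under 2-fold ahead in 25.9% and 26.9% of these cells, against 5.19% and 2.20% for insulin in insulin-leading cells. Their median depth was 17809.5 and 11546 UMIs. The part of mixed barcodes in these values was not tested.

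Cox6a2 transcripts were also spread unevenly over cells. With each insulin-leading cell thinned to 5000 UMIs (3447 control and 4869 labelled-knockout cells, 1315 and 2619 shallower ones left out), Cox6a2 averaged 0.61 UMIs per control cell. Sdhb, the subunit gene nearest to it in insulin-leading UMIs summed over both libraries, averaged 0.60. Yet 69.0% of control cells had no Cox6a2 UMI against 56.7% for Sdhb, and 7.02% had 3 or more against 3.25%. Those cells carried 46.8% of all Cox6a2 UMIs, against 17.6% for Sdhb. The variance over the mean was 2.35 for Cox6a2 and 1.13 for Sdhb in control, and 2.08 and 1.14 in the library labelled knockout. Across bands the share of control cells with 3 or more Cox6a2 UMIs was 11.2% in the lowest and 1.12% in the highest. Insulin itself takes up part of the 5000 UMIs in high bands, and for Sdhb the share went from 4.35% in the lowest to 1.78% in the band of 20 to 30%, where that of Cox6a2 was 2.14%. In the highest control band Sdhb had 0 of 448 such cells, which allows a share of up to 0.67%.

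**Figure D4:**
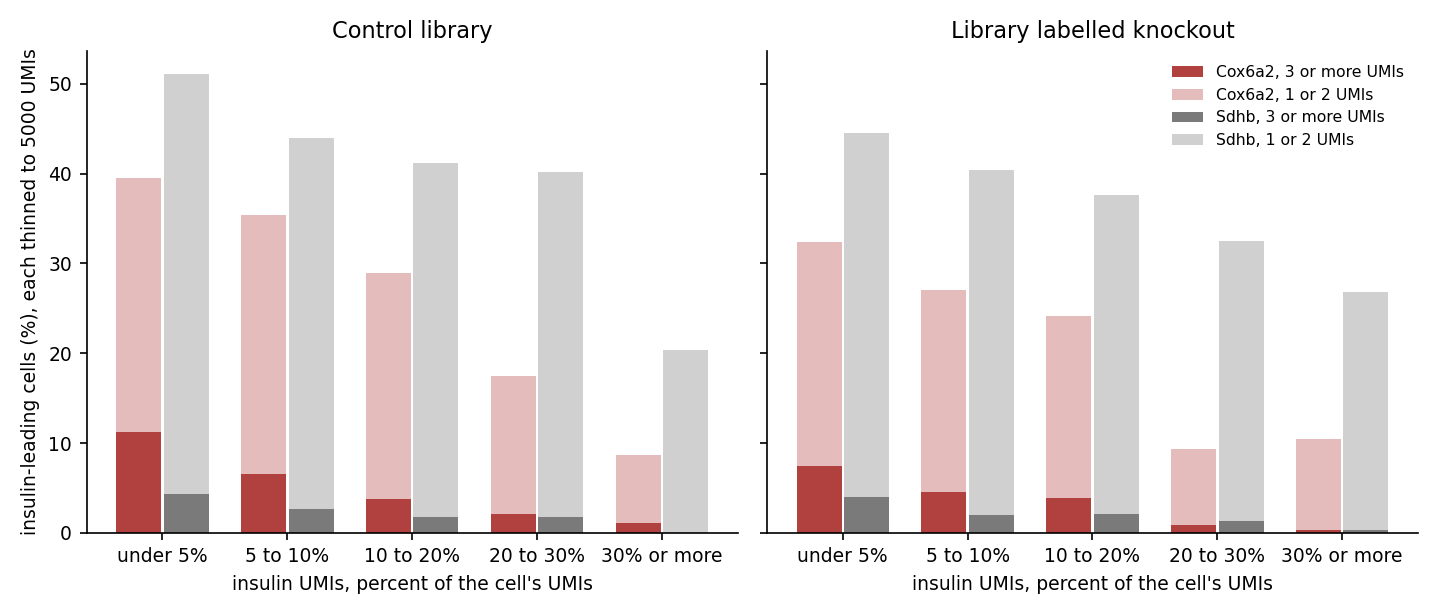
Percent of insulin-leading cells, each thinned to 5000 UMIs, with 1 or 2 (pale) or 3 or more (dark) UMIs of Cox6a2 (red) and of Sdhb (grey), by insulin band and library. In the lowest control band 11.2% of cells have 3 or more Cox6a2 UMIs against 4.35% for Sdhb, although more cells hold any Sdhb UMI in every band.

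Levels between the libraries were compared as ratios with no test, since there was 1 library per genotype. In insulin-leading cells 1 of 78 genes differed by at least 1.5-fold, where 2.95% of all genes were at least 1.5-fold lower and 8.57% higher in the library labelled knockout. It was Cox6a2, at 136 CPM in control and 78.5 CPM in the library labelled knockout, 1.73-fold lower (log2 -0.79, counting interval -0.84 to -0.74). In the 5 insulin bands its log2 ratio was -0.66, -0.58, -0.52, -1.24 and -0.73, so it was lower within each band, though short of 1.5-fold in the bands of 5 to 10% and 10 to 20%. In cells of 5000 to 15000 UMIs it was -0.53, and with each cell weighted equally -0.65.

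Gcg-leading cells showed 88.4 CPM of Cox6a2 in control and 81.6 CPM in the other library (log2 -0.12, counting interval -0.24 to 0.00). Thus the level in control insulin-leading cells stood above the other 3 sums of these classes, which lay between 78.5 and 88.4 CPM. Ppy-leading cells, given above, also had less Cox6a2 in the library labelled knockout. The Cox6a2 share of Cox6a UMIs was lower there in each class. It was 29.9% and 23.6% in insulin-leading, 27.1% and 23.3% in Gcg-leading and 29.9% and 20.7% in Ppy-leading cells. In a separate random thinning to the same 5000 UMIs, so that shares differ slightly from those given above, 32.1% (exact 95% interval 30.6 to 33.7) of control and 22.6% (21.4 to 23.8) of labelled-knockout insulin-leading cells held a Cox6a2 UMI, against 21.4% (19.4 to 23.5) and 22.7% (19.9 to 25.7) of Gcg-leading cells. Before thinning the shares were 36.8%, 26.6%, 27.3% and 28.0%, at median depths of 9444, 8016, 7966 and 6443 UMIs. The alpha to beta difference of Cox6a2 did not pass the test (log2 difference -0.29, edgeR adjusted p = 0.29).

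Among the other 77 genes the largest ratios in insulin-leading cells were those of Atp5b, the catalytic beta subunit of ATP synthase (488 and 356 CPM, log2 -0.46), Ndufv1, which binds the flavin that accepts electrons from NADH (136 and 101 CPM, log2 -0.43), and Cox6a1 (318 and 255 CPM, log2 -0.32). On the other side stood Ndufv3 (233 and 294 CPM, log2 0.33) and Ndufa1 (124 and 152 CPM, log2 0.30). The complex medians were 0.04 for complex I, -0.21 for complex II, -0.03 for complex III, -0.03 for complex IV and 0.03 for complex V, against 0.00 for all genes. The 4 subunits of complex II were lower in the sums of the library labelled knockout: Sdha at 142 and 123 CPM, the iron-sulphur subunit Sdhb at 118 and 98.2 CPM, and the membrane anchors Sdhc at 81.5 and 79.0 CPM and Sdhd at 59.9 and 51.6 CPM. Within the insulin bands this held for Sdha and Sdhd, but Sdhc was higher in 4 of 5 bands and Sdhb in the highest. Grouped by role after the values were seen, the 7 core subunits of complex I had a median of -0.15 and the 30 other genes counted under it 0.08.

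In the 2 highest bands 3 further genes were at least 1.5-fold higher in the library labelled knockout, Ndufb2, Ndufs4 and Ndufs8, and Atp5b was at least 1.5-fold lower. Ndufb2 shares exon sequence on the same strand with Gm42420 in GENCODE vM21, so its counts are less certain. Ndufs8, a core iron-sulphur subunit of complex I, measured 50.6, 37.0, 31.9, 23.0 and 25.6 CPM over the control bands and 52.0, 45.5, 47.4, 48.0 and 50.3 CPM over those of the other library. The libraries were close in the lowest band and apart in the highest. At least 1.5-fold differences were also more frequent among all genes there, at 19.6% higher and 13.2% lower in the highest band.

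In Gcg-leading cells 0 of 78 genes differed by at least 1.5-fold (1.7% of all genes lower, 2.16% higher), but 68 of 78 were higher in the library labelled knockout. The median log2 ratio was 0.23, against -0.01 for all genes. By complex it was 0.26 for complex I, -0.04 for complex II, 0.13 for complex III, 0.21 for complex IV and 0.17 for complex V, and 18 genes had a log2 ratio of 0.32 or more and none of -0.32 or less, against 7.41% and 8.01% of all genes. Among the largest were the accessory complex I subunits Ndufb3 (140 and 190 CPM, log2 0.45) and Ndufa11 (167 and 226 CPM, log2 0.44), Cox7b of complex IV (201 and 270 CPM, log2 0.42) and Uqcrb of complex III (248 and 329 CPM, log2 0.41).

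By role, with ranges that overlap in complex I, all 30 genes counted under complex I by symbol outside its core were higher. Their median was 0.28, while the 7 core subunits ran from -0.21 (Ndufs1) to 0.26 (Ndufs7) with a median of 0.17. The core proteins and Rieske protein of complex III (Uqcrc1, Uqcrc2, Uqcrfs1) had a median of -0.01 and the 5 other Uqcr genes 0.33. In ATP synthase the 5 subunits of the F1 head and stalk had a median of 0.12 and the 12 others 0.25. This grouping too was made after the values were seen and was not tested.

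**Figure D5:**
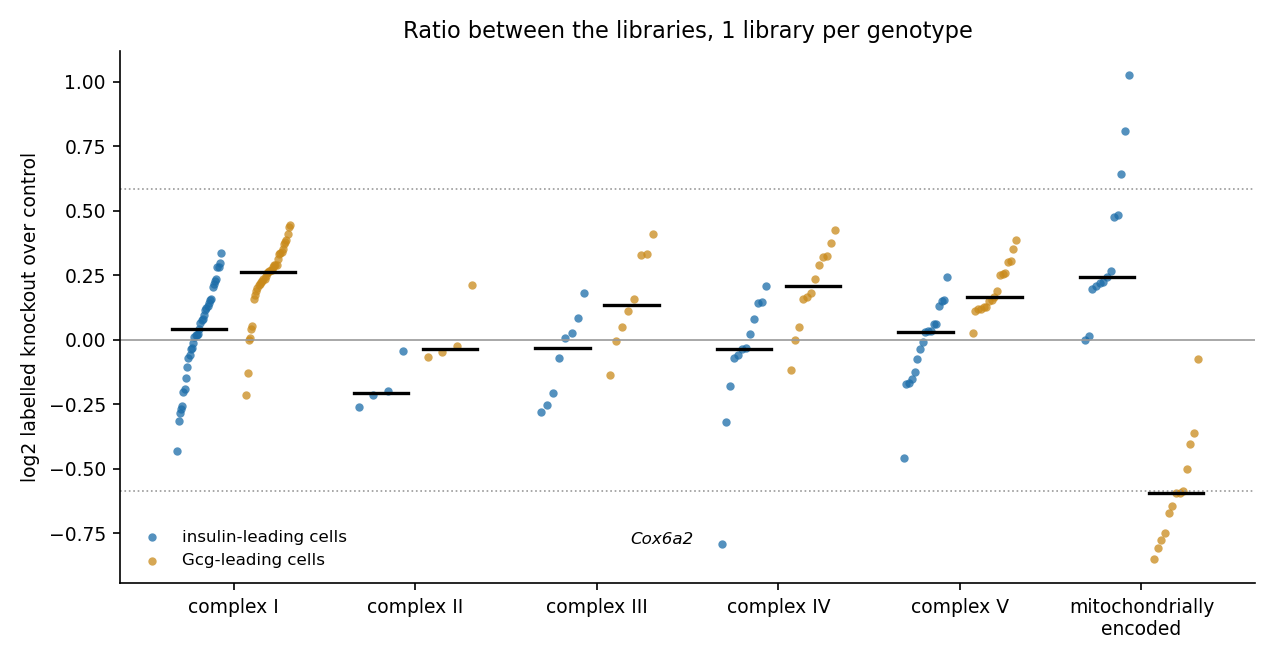
Log2 ratio of the library labelled knockout over control for each nuclear gene by complex and for the 13 mitochondrially encoded subunits, in insulin-leading (blue) and Gcg-leading (yellow) cells; bars are medians and dotted lines mark 1.5-fold. Cox6a2 is the lowest nuclear gene at -0.79 in insulin-leading cells, and in Gcg-leading cells most nuclear genes are above 0 and the mitochondrially encoded ones below.

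The mitochondrially encoded subunits went the other way in Gcg-leading cells. All 13 were below control there, at a median log2 ratio of -0.60, and 9 were at least 1.5-fold lower, while in insulin-leading cells 13 of 13 were at or above control, with a median of 0.24. Nuclear UMIs per mitochondrially encoded UMI were 0.57 in control and 1.05 in labelled-knockout Gcg-leading cells, and 0.99 and 0.82 in insulin-leading cells. Median mitochondrial UMIs per cell were 3.24% and 1.92% in Gcg-leading cells. The gate also differed: the 9 beta markers, Ins1 and Ins2 included, summed to 10033 CPM in control and 16419 CPM in labelled-knockout Gcg-leading cells. Most of this was insulin, with Ins2 at 6834 and 11093 CPM and Ins1 at 578 and 2353 CPM. The leading hormone was under 2-fold ahead in 7.49% and 14.0% of these cells. With the 5-fold lead required, the median of complex I was 0.33 and that of complex IV 0.33, larger than without it. The part of mitochondrial content in these ratios was not tested.

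Isoform use was otherwise narrow. Of the isoforms under the minimum, Cox4i2 had 109 UMIs and Ndufa4l2 295 in all control insulin-leading cells, and 89.9% and 60.7% of these lay in the 68 cells with markers of other cell types, which held 1.57% of all UMIs. In the other library the shares were 85.3% and 55.5%, in 141 cells with 1.84% of UMIs. The same cells held 0.31% and 0.78% of the Cox6a2 UMIs. Cox7a1, the muscle form of Cox7a, had 35 and 129 UMIs in the insulin-leading cells of the 2 libraries, and Cox8b, the muscle form of Cox8, 0 and 1. Of these 3 muscle isoforms of complex IV, only Cox6a2 was above the minimum.

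The 3 genes Atp5g1, Atp5g2 and Atp5g3 encode the same mature c-ring protein of ATP synthase. Atp5g1 made up 48.7% and 45.8% of their UMIs in insulin-leading cells of control and of the other library, and 39.1% and 41.5% in Gcg-leading cells. From the lowest to the highest insulin band the Atp5g1 share went from 52.3% to 35.6% in control and from 48.3% to 43.3% in the other library. Atp5g3 stayed between 12.3% and 15.4% throughout. None of the 3 genes passed the alpha to beta or the band test (edgeR adjusted p for Atp5g1 0.20 and 0.66).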

How the data were processed

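The authors deposited 1 matrix of unnormalized UMI counts for each library; its header names Cell Ranger 6.0.0 as the software. The genome build was mm10, and R 4.1.1 and Seurat 4.1.0 are named in the submitters' processing notes. How barcodes were chosen is not given in the sources used here. Barcodes under 500 genes or over 15% mitochondrial UMIs were dropped. The remaining cells were classed by the hormone with most UMIs (Ins1 plus Ins2, Gcg, Sst or Ppy), with ties left out. No doublet caller was run; the stricter gate required a 5-fold lead. Counts were summed per class or insulin band and library, and tested with edgeR 4.0.16 (TMM, quasi-likelihood test, library as a term, Benjamini-Hochberg over all genes at 5 CPM), with DESeq2 1.42.0 as an alternative, in R 4.3.3. Ins1 and Ins2 were left out of the band fits and of their totals. With 2 libraries the p-values measure the spread between these 2 only. The 2 libraries differ in genotype and in all else that differs between them, which cannot be told apart. Library ratios carry exact conditional 95% intervals for counting error, and a count of 0 was set to 3 counts. The fit for alpha against beta was tested on simulated data of 10639 genes with no library effect. The simulation set the same spread for every gene and the same class change in both libraries. It called 110 of 110 genes changed 3-fold, 57 of 90 changed 1.5-fold and 3 of 10439 unchanged ones, rates that need not hold for the real data. Complexes, lists and isoforms were described by medians and counts. Named genes were the isoforms, complex II, and in each complex the highest gene and up to 2 with the largest difference in each direction at 25 CPM or more; called genes and the genes of role groups were added after their values were seen. The genes and lists were chosen with earlier results of these data known. Positions are from GENCODE vM21; it lists Atp5md as Usmg5. The result of 1 gene is not reported here.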

Additional observations from a re-analysis of the deposited data

How the results depend on the processing

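Every count named here was recomputed with 1 choice changed at a time. No called gene turned its direction under them; some medians of complexes changed sign, as given. For alpha against beta, 4 genes were called (0 higher, 4 lower). The count was 8 (all lower) with CPM over UMIs other than hormones and mitochondrial genes, 7 (all lower) with no filter on low values, and 0 (0 lower) without the library term, and 2 were called higher at a minimum of 25 CPM. The same 4 genes were called with 1000 genes per cell, with 10% mitochondrial UMIs, with DESeq2, with insulin-leading cells of at least 1% insulin UMIs, and without cells holding markers of other cell types; the last 2 were chosen after seeing the data. Plain CPM called 3 of them, and the 5-fold lead called Ndufa4 as well. For the insulin bands, 6 genes were called (5 higher, 1 lower). The count was 3 (2 higher) with a 5-fold lead, 3 (2 higher) between outer quartiles of the insulin share, 10 (3 lower) with no filter, and 0 (0 higher, 0 lower) without the library term. CPM over UMIs other than Ins1 and Ins2 called 4 lower, and CPM without hormones and mitochondrial genes called 2 lower. DESeq2 called Atp5j2 in place of Atp5md. The median of complex I in the bands was -0.0082 with CPM over UMIs other than Ins1 and Ins2, where all genes were at -0.20. With CPM without hormones and mitochondrial genes it was 0.060, where all genes were at -0.13.

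Each library alone, in alpha against beta, gave a median between -0.20 and 0.019 for complex II, -0.34 and -0.053 for complex III, -0.15 and 0.11 for complex IV, and -0.11 and 0.12 for complex V. In the bands complex IV ranged from 0.15 to 0.48. Alpha against beta and the bands were compared within library through the library term. Between the genotypes, no paired analysis was possible because each has 1 library.

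For the library ratio in insulin-leading cells, 1 gene passed 1.5-fold (0 higher, 1 lower). With no filter 7 did (3 higher, 4 lower), which adds only genes under 5 CPM, and at a log2 ratio of 0.32 in size 4 did (1 higher, 3 lower). In cells of 5000 to 15000 UMIs 0 did (0 lower), and likewise 0 (0 lower) in the bands of 5 to 10% and 10 to 20%. In the bands of 20 to 30% and of 30% or more it was 5 each (3 higher, 2 lower). The median of complex I was -0.047 with plain CPM, -0.040 in the band of 20 to 30% and -0.13 in that of 30% or more. Complex II was at -0.29 with plain CPM, -0.31 in the band of 10 to 20% and -0.27 in that of 20 to 30%. Complex IV was at -0.21 and -0.32 in the 2 highest bands, and complex V at -0.14 in the highest. Plain CPM moved the median of all genes to -0.09. In Gcg-leading cells 0 genes passed 1.5-fold. With no filter 3 did (3 lower, all under 5 CPM), and at 0.32 in size 18 did (18 higher). The median of complex I was 0.33 with a 5-fold lead and 0.34 with each cell weighted equally, and complex IV was at 0.33 with the 5-fold lead. Values for equal weighting were centred so that the median of all genes matched the sums.

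Depth limits genes near 5 CPM, and the isoforms under it rest on few UMIs. The cause of the other shifts was not tested.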
